A study of Mus musculus with 34 samples.

Results

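The matrix metalloproteinases, the tissue inhibitors that block them and the related ADAM and ADAMTS proteases were followed in the stromal vascular fraction (SVF) of visceral fat from lean and obese mice. Members were taken by gene symbol alone: every listed gene named Mmp, Timp, Adamts or Adam with a number and, where there is one, an a or b. This gave 79 of the 32098 genes in each table, made up of 23 Mmp, 4 Timp, 19 Adamts and 33 Adam genes.

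RNA was sequenced from the SVF, the cells that pelleted when perigonadal fat was digested with type I collagenase and the adipocytes were floated off and red cells lysed. All mice were male C57BL/6J and began their diets at 6 weeks of age, on a high fat diet (HFD, with 60% of energy from fat, D12492) or a control diet (CHOW, D12450B or D12450K, and which mouse had which was not given in the sources used here). There were 4 CHOW and 6 HFD libraries after 8 weeks (14 weeks of age), 5 CHOW and 6 HFD libraries after 20 weeks (26 weeks of age), and 7 CHOW and 6 HFD libraries after 34 weeks (40 weeks of age). The sources used here do not say that each library came from a separate mouse, so p-values measure the spread between these libraries. Mice were fasted for 6 h before harvest.

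Matrix metalloproteinases (Mmp) are secreted or membrane-bound zinc enzymes that cut collagens, elastin and other matrix proteins, and they are made as inactive precursors. The tissue inhibitors of metalloproteinases (Timp) bind the active enzymes. ADAM proteins sit in the cell membrane and release the outer part of receptors and cytokines, while ADAMTS proteins are secreted and cut proteoglycans, procollagens and other matrix proteins. Fat that expands must rebuild its matrix, and macrophages, neutrophils and fibroblasts of the SVF are known sources of these enzymes. Several ADAM genes serve sperm formation and egg binding and are known from testis and epididymis, which lie against perigonadal fat.

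The zinc site was the feature shared by the enzymes and was read from the coding sequences. The motif searched was a histidine codon and a glutamate codon, 2 other codons, a histidine codon, 5 other codons and a last histidine codon, together 11 codons or 33 bases. It was found in 23 of 23 Mmp genes, 19 of 19 Adamts genes, 20 of 33 Adam genes and 0 of 4 Timp genes. The stretch is shown for 8 enzymes whose levels are described here, as the coding strand of gencode M21 (GRCm38), with the histidine and glutamate codons of the motif in capitals.
Mmp12: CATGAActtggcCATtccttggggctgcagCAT
Mmp9: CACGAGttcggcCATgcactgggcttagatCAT
Mmp2: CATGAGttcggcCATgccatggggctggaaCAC
Mmp3: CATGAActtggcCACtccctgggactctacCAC
Mmp13: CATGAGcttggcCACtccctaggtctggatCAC
Adam8: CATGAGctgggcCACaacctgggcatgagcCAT
Adamts4: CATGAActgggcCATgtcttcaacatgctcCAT
Adamts3: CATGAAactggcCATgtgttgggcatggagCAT
The 13 Adam genes without the motif were Adam2, Adam3, Adam4, Adam5, Adam6a, Adam6b, Adam7, Adam11, Adam18, Adam22, Adam23, Adam29 and Adam32. Of these, 10 were reproductive tract genes.

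A run of 10 Mmp genes lay together on chromosome 9, from Mmp13 at chr9:7272514-7283331 to Mmp7 at chr9:7692090-7699585. Promoter windows from 250 bases before to 50 bases after the start (RefSeq, GRCm38.p6) were found for 49 of the 79 members, as 54 windows, and were searched for the AP-1 motif TGANTCA. AP-1 is the Fos and Jun family of transcription factors. The motif reads the same on both strands, and 7.81% of 32851 promoters held it. It was present in 8 of the 10 genes of the chromosome 9 run (80.0%) and in 0 of the 8 other Mmp genes with a window (Mmp11, Mmp14, Mmp15, Mmp21, Mmp23, Mmp24, Mmp25 and Mmp28). Mmp2 and Mmp9 had no entry. Windows are shown for the chromosome 9 genes that were higher on HFD than on CHOW at 20 weeks by the test described below. The motif is in capitals, and all are on the + strand.
Mmp12, chr9:7347124-7347423: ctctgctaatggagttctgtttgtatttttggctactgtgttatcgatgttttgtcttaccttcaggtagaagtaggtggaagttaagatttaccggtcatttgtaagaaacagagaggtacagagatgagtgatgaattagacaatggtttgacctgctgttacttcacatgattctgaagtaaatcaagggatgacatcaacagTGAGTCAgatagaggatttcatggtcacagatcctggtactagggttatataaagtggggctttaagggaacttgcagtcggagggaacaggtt
Mmp13, chr9:7272264-7272563: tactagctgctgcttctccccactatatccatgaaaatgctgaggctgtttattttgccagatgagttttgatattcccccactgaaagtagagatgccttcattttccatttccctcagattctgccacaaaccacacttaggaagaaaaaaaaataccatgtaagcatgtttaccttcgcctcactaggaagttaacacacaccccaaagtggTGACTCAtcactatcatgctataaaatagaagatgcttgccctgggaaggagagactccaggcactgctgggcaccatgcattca
Mmp3, chr9:7445572-7445871: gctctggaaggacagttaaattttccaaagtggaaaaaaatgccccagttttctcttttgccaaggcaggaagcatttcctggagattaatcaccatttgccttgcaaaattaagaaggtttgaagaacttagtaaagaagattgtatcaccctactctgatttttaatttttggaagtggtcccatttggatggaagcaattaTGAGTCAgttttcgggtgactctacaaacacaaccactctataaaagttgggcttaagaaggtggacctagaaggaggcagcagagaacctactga
The motif began 44, 35 and 46 bases before the start in Mmp12, Mmp13 and Mmp3. Mmp12 had a further window, chr9:7344147-7344446, without it. The window of Mmp27, a gene of the run that rose from 8 to 20 weeks on HFD, did not hold it either. A match in letters says nothing of whether a factor was bound there.

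Values are TPM, each transcript's share of its library corrected for transcript length and scaled to the same total in every library, so levels can be set side by side between genes. Read depth cannot be had from TPM and is unknown, and the tables for 8 and 20 weeks and for 34 weeks were made separately. Each library held 13200 to 17213 genes at 1 TPM or more. Some libraries stood apart in markers of other tissues. The summed TPM of 10 germ cell markers was 2451, 3130 and 13175 in HFD 20 week replicates 3, 4 and 5, 5338 and 5738 in HFD 34 week replicates 1 and 2, 1176 in HFD 8 week replicate 4, and at most 575 in any CHOW library. HFD 8 week replicate 3 held 123060 TPM of seminal vesicle transcripts, HFD 8 week replicate 6 held 267887 TPM of erythroid transcripts, and CHOW 34 week replicate 6 held 30224 TPM of adipocyte transcripts. Because the total is fixed, transcripts this abundant lower the TPM of all other genes in their library. HFD 8 week replicates 3 and 6 had the lowest Timp sums of their group (822 and 1012 TPM). Rises from 8 to 20 weeks on HFD can read larger for this.

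Most members were low in this fraction. Mean TPM over all 34 libraries was under 1 for 27 of 79 members and at least 100 for 11, and Mmp1a and Mmp1b were listed at 0 in every library. A level of 1 TPM in at least 4 libraries (8 and 20 weeks) or 6 libraries (34 weeks) was asked for before a member was tested. At 8 and 20 weeks 57 members passed (4 Timp, 16 Mmp, 16 Adamts and 21 Adam), at 34 weeks 45 passed (4, 14, 14 and 13), and 22 passed in neither table. The inhibitor Timp2 was the most abundant inhibitor in each of the 6 groups, with group means of 731 to 1021 TPM. Mmp12, Mmp2 and Mmp14 led the Mmp genes, Adamts1, Adamts4 and Adamts2 the Adamts genes, and Adam8, Adam15 and Adam9 the Adam genes.

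After 20 weeks the HFD fraction held far more Mmp12, macrophage elastase, and less Mmp9, gelatinase B, than the CHOW fraction. Mmp2 (gelatinase A), Mmp3 (stromelysin 1), Mmp11 (stromelysin 3), Mmp13 (a collagenase), Adam8, Adam12 and Adam19 were also higher. None of the 4 inhibitors passed the test. In all, 16 of 57 members (28.1%) passed an adjusted p of 0.05 (limma on log2(TPM + 1), Benjamini-Hochberg over all genes tested), 12 higher and 4 lower on HFD, against 14.3% of all 16808 genes tested (9.32% higher and 4.99% lower). With quantile normalization the split was 14 higher and 8 lower, with 20.8% of all genes called. Without the reproductive tract Adam genes, 12 of 47 members (25.5%) passed, 8 higher and 4 lower. Without the 3 HFD 20 week libraries with the most germ cell RNA, 6 of 57 passed (Mmp12, Mmp3, Mmp2, Adam8, Adam19 and Mmp9), and the share of all genes was 5.63%. With a score of adipocyte markers as a covariate 5 passed, 4 of them among the 16 (Mmp12, Mmp2, Mmp11 and Mmp9), and the share of all genes was 3.03%. Groups did not overlap for 6 members that were higher on HFD (5.5% of all genes tested) and 4 that were lower (3.69%). Of the members tested with the zinc motif in their coding sequence 9 of 43 were higher and 3 lower, and of the 10 Adam genes tested without it Adam5, Adam32 and Adam2 were higher and Adam23 lower. The 4 Timp genes, which lack it too, did not pass. The median log2 fold change was 0.19 over the members and 0.08 over all genes tested. Markers of other cells moved at this time too, with 8 of 8 mesothelial markers lower on HFD (summed TPM 218 to 750 in CHOW and 69.5 to 217 in HFD libraries) and 6 of 6 mast cell markers higher (477 to 683 and 573 to 2732). Of 5 erythroid markers, 5 were lower (27334 to 130027 TPM in CHOW and 12622 to 30448 TPM in HFD libraries). For these 3 cell types, their part in the members' differences was not tested.

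**Figure D1:**
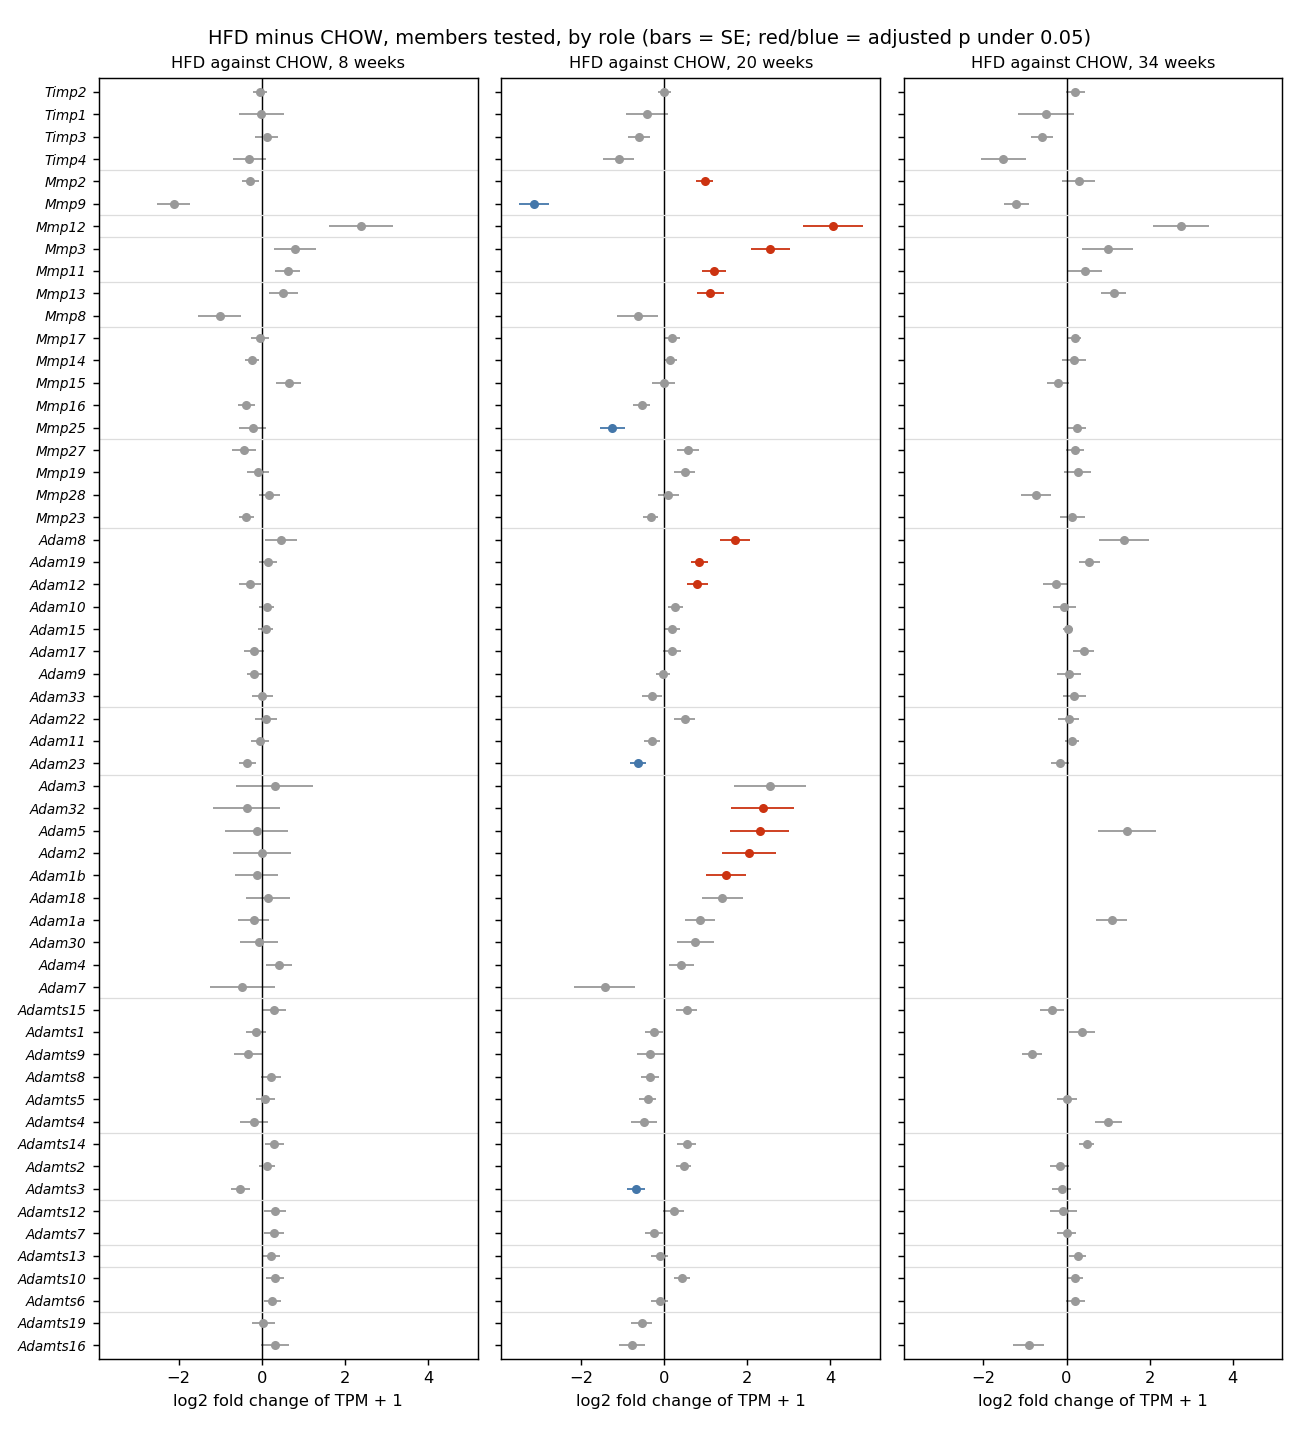
Log2 fold change of each member tested, HFD against CHOW, on the log2(TPM + 1) scale (horizontal axis) after 8, 20 and 34 weeks, with members in rows ordered by role and bars for the standard error. Red and blue points passed an adjusted p of 0.05 as higher and lower, and these appear only in the 20 week panel, where Mmp12 stood at 4.07 and Mmp9 at -3.14.

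Mmp12 (ENSMUSG00000049723.14, chr9:7344381-7369499, + strand) encodes an elastase that macrophages secrete. Its end overlaps that of Mmp1b on the other strand, and Mmp1b was listed at 0. After 8 weeks the 4 CHOW libraries held 15.03, 172, 78.3 and 141 TPM and the 6 HFD libraries 144 to 891 TPM, with a median of 398. After 20 weeks the 5 CHOW libraries held 54.3, 644, 46.8, 15.4 and 59.9 TPM and the HFD libraries 659.8 to 2072, with a median of 1152. The groups overlapped at 8 weeks and not at 20 weeks, where CHOW replicate 2 stood far above the other CHOW libraries and just below the lowest HFD library. After 34 weeks the 7 CHOW libraries held 19.02 to 496 TPM, with a median of 159.7, and the HFD libraries 641 to 1058, with a median of 946, again without overlap. The log2 fold change was 2.39 (SE 0.76, adjusted p = 0.285) at 8 weeks, 4.07 (SE 0.71, adjusted p = 0.000955) at 20 weeks and 2.75 (SE 0.66, adjusted p = 0.127) at 34 weeks. The ratio of the mean TPM was 4.60, 7.62 and 4.09 at the 3 times. By size of log2 fold change Mmp12 was the 3rd highest of all 16808 genes at 20 weeks and the 9th highest at 8 weeks. Its change from 8 to 20 weeks on HFD (1.59, adjusted p = 0.135) and the diet by time interaction (1.68, adjusted p = 0.458) did not pass.

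The summed TPM of 10 macrophage markers, like Mmp12, reached higher values on HFD than on CHOW at 20 weeks. It was 5310 to 12423 in CHOW and 9381 to 16647 in HFD libraries at 20 weeks, where 5 of the 10 markers were higher and 1 lower, Cd163 (-2.41). At 8 weeks the sum was 8037 to 11028 in CHOW and 5345 to 12644 in HFD libraries, and 0 of 10 markers passed. At 34 weeks it was 5136 to 20398 and 11832 to 18551, and again 0 of 10 passed. Adgre1 and Cd68, which define macrophages, were above 0 in every library. Per 1000 TPM of macrophage markers, Mmp12 was 2.58 to 51.8 TPM in CHOW and 41.1 to 124 in HFD libraries at 20 weeks, 1.87 to 20.99 and 26.9 to 70.5 at 8 weeks, and 2.30 to 30.4 and 36.02 to 89.4 at 34 weeks. These ranges did not overlap at 8 or 34 weeks. At 20 weeks they overlapped, with CHOW replicate 2 (51.8) above HFD replicate 3 (41.1). That HFD library had 16063 TPM of macrophage markers and the lowest Mmp12 of its group, so the markers and Mmp12 did not go together library by library. In bulk samples fewer cells of a type and less RNA per cell cannot be told apart.

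**Figure D2:**
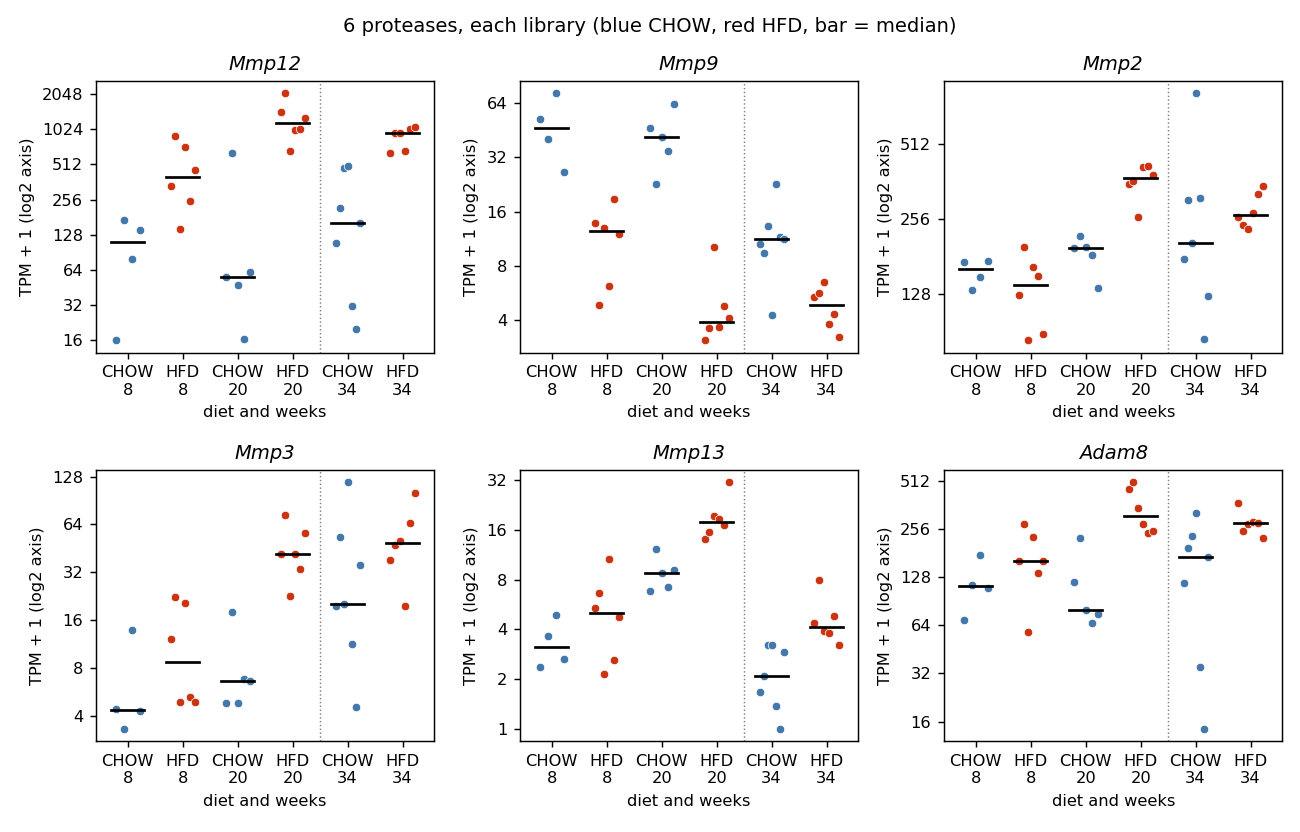
TPM of Mmp12, Mmp9, Mmp2, Mmp3, Mmp13 and Adam8 in each of the 34 libraries (vertical axis, TPM + 1, log2 scale) by diet and weeks (horizontal axis), with points for libraries, bars for group medians, CHOW in blue and HFD in red. The dotted line sets off the 34 week table, which was made separately, and at 20 weeks the diets did not overlap in any of the 6 panels.

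The gelatinases went opposite ways at 20 weeks. Mmp9 (chr2:164940780-164955850, + strand) cuts denatured collagen and basement membrane collagen and is stored by neutrophils. After 8 weeks the CHOW libraries held 51.2, 39.5, 71.6 and 25.4 TPM and the HFD libraries 3.82 to 17.9, with a median of 11.5. After 20 weeks the CHOW libraries held 45.4, 21.7, 40.4, 33.9 and 62.1 TPM and the HFD libraries 2.08 to 9.19, with a median of 2.88. At both times every HFD library was below every CHOW library, while at 34 weeks HFD libraries (2.19 to 5.49 TPM, median 3.83) overlapped CHOW libraries (3.24 to 21.8 TPM, median 10.2). The log2 fold change was -2.12 (SE 0.39, adjusted p = 0.0632) at 8 weeks, -3.14 (SE 0.36, adjusted p = 2.02e-05) at 20 weeks and -1.21 (SE 0.31, adjusted p = 0.138) at 34 weeks. At 20 weeks this was the 7th lowest of 16808 log2 fold changes.

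Neutrophil markers moved with Mmp9 in part. Their summed TPM was 193 to 1433 in CHOW and 37.8 to 530 in HFD libraries at 20 weeks, and Retnlg was lower (-3.62) while the other 7 markers tested did not pass. S100a8 and Retnlg were above 0 in every library. The CHOW 20 week library with the most neutrophil RNA, replicate 2, had the lowest Mmp9 of its group (21.7 TPM). In CHOW 8 week replicate 3 (2053 TPM of neutrophil markers) neutrophil RNA and Mmp9 were both the highest of the group. The same held for HFD 20 week replicate 3 (530 TPM of the markers and 9.19 TPM of Mmp9). The part of neutrophils in the Mmp9 difference was not tested. Other neutrophil products of the family were Mmp25 (leukolysin, a membrane-type enzyme) and Mmp8 (neutrophil collagenase). Mmp25 fell from 5.08 to 8.72 TPM in CHOW to 1.20 to 2.37 TPM in HFD libraries at 20 weeks, without overlap (-1.25, SE 0.30, adjusted p = 0.00996). The Mmp25 call was lost with the adipocyte covariate and without the 3 HFD 20 week libraries with the most germ cell RNA. Mmp8 was 0.222 to 8.30 TPM in CHOW and 0.106 to 1.92 TPM in HFD libraries and did not pass at 20 weeks.

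Mmp2 (chr8:92827291-92853420, + strand) encodes a gelatinase that fibroblasts make throughout the body. After 20 weeks the CHOW libraries held 195, 217, 196, 182 and 135 TPM and the HFD libraries 260.2 to 416, with a median of 371. No HFD library reached down to the CHOW range, and the ratio of the means was 1.97 (log2 fold change 0.97, SE 0.20, adjusted p = 0.00281). After 8 weeks CHOW libraries held 132 to 172 TPM and HFD libraries 82.5 to 197, and after 34 weeks 83.2 to 814 and 233 to 346, with overlap and adjusted p of 0.723 and 0.753. On HFD alone Mmp2 rose from 8 to 20 weeks with no overlap (ratio of the means 2.71, log2 fold change 1.48, SE 0.19, adjusted p = 3.5e-05). On CHOW the difference over the same time was 0.24 (adjusted p = 0.73), and the interaction of 1.25 (SE 0.29) had an adjusted p of 0.0723. The fibroblast markers summed to 6204 to 8669 TPM in CHOW and 4369 to 8080 TPM in HFD libraries at 20 weeks, and 1 of 10 was higher and 2 were lower. Per 1000 TPM of them, Mmp2 was 18.3 to 34.9 TPM in CHOW and 50.8 to 62.8 TPM in HFD libraries.

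The stromelysins and the collagenase Mmp13 followed. Mmp3 (chr9:7445822-7455975, + strand) cuts proteoglycans, fibronectin and laminin and activates other Mmp precursors. After 20 weeks CHOW libraries held 3.81, 16.97, 3.802, 5.75 and 5.62 TPM and HFD libraries 21.6 to 72.4, with a median of 40.6. The groups did not overlap, and Mmp3 was higher on HFD by 2.55 on the log2 scale (SE 0.47, adjusted p = 0.00145). With the adipocyte covariate the Mmp3 call was lost (adjusted p = 0.0896). At 8 weeks CHOW libraries held 2.30 to 12.8 TPM and HFD libraries 3.84 to 21.2, and at 34 weeks 3.51 to 117 and 18.5 to 100.4, with overlap at both times and no call. Mmp13 was 5.82, 11.3, 7.82, 6.27 and 8.19 TPM in CHOW and 13.1 to 30.2 TPM in HFD libraries at 20 weeks, again without overlap (1.11, SE 0.33, adjusted p = 0.0293). This call was lost without CHOW 20 week replicate 1, 3, 4 or 5, with the adipocyte covariate, with a pseudocount of 0.1 TPM and with no filter. It was also lost without the 3 HFD 20 week libraries with the most germ cell RNA. At 34 weeks Mmp13 was 0 to 2.22 TPM in CHOW and 2.23 to 6.99 TPM in HFD libraries, without overlap (1.14, adjusted p = 0.150). Mmp11, which has little known matrix substrate and is found in fibroblasts, was 16.9 to 37.3 TPM in CHOW and 34.7 to 94.6 TPM in HFD libraries at 20 weeks (1.20, SE 0.29, adjusted p = 0.009), with overlap. The Mmp11 call was lost without the 3 HFD 20 week libraries with the most germ cell RNA (adjusted p = 0.077).

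The membrane-type enzyme Mmp14, which cuts collagen at the cell surface and activates the Mmp2 precursor, did not differ between diets by the test at 20 weeks (0.15, adjusted p = 0.577), with 270.5 to 331 TPM in CHOW and 237 to 408 TPM in HFD libraries. It rose from 8 to 20 weeks on HFD, from 98.1 to 191 TPM to the range just given, without overlap (1.05, SE 0.15, adjusted p = 0.000164). On CHOW the 8 week libraries held 177 to 192 TPM, all below the 20 week libraries, and the difference (0.66, SE 0.18) had an adjusted p of 0.0912. Mmp15, also of the membrane type, was among the 3 members with the highest log2 fold change at 8 weeks (0.65, adjusted p = 0.496), after Mmp12 and Mmp3.

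The inhibitors showed no call between diets at any time. Timp2 (chr11:118301069-118355740, - strand), which also takes part in Mmp2 activation, had a mean of 1012 TPM (SD 148, n = 5) in CHOW and 1007 TPM (SD 92.2, n = 6) in HFD libraries at 20 weeks (0.00 on the log2 scale, SE 0.15, adjusted p = 0.998). Timp1 (X:20870166-20874735, + strand), which responds to inflammation, was 195 to 478 TPM in CHOW and 128 to 362 TPM in HFD libraries at 20 weeks (-0.42, adjusted p = 0.628). Its highest values were 1081 TPM in CHOW 34 week replicate 4 and 703 TPM in CHOW 8 week replicate 3, each well above the other libraries of its group. Timp3 (chr10:86300372-86349506, + strand), which binds to the matrix and also blocks ADAM17, was 207 to 355 TPM in CHOW and 145 to 290.4 TPM in HFD libraries at 20 weeks (-0.61, SE 0.26, adjusted p = 0.123). Timp4 (chr6:115241892-115252205, - strand), known from adipocytes, was 33.4 to 58.9 TPM in CHOW and 13.2 to 38.7 TPM in HFD libraries at 20 weeks (-1.09, SE 0.37, adjusted p = 0.0545). At an unadjusted p under 0.05, 2 of the 4 inhibitors passed at 20 weeks, Timp3 and Timp4. Timp4 also passed the adjusted threshold under 6 of the 10 other settings tried, and Timp3 under 2 of them, sample quality weights and a fit of the groups compared alone.

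Timp4 was set beside adipocyte RNA. The adipocyte markers summed to 4511 to 7541 TPM in CHOW and 3111 to 5181 TPM in HFD libraries at 20 weeks, with 4 of 9 markers tested lower and 1 higher, Lep. At 34 weeks Timp4 was 9.33 to 176 TPM in CHOW and 4.59 to 31.1 TPM in HFD libraries (-1.52, SE 0.54, adjusted p = 0.264), and its highest value was in CHOW replicate 6, the library with the most adipocyte RNA. From 8 to 20 weeks on HFD Timp4 fell by 1.17 on the log2 scale (SE 0.35, adjusted p = 0.0447) while Timp2 rose by 0.49 (SE 0.15, adjusted p = 0.0427). With the adipocyte covariate the Timp4 value over this time was 0.32 (adjusted p = 0.8288). The adipocyte markers themselves differed between these groups (median sums of 6182 TPM at 8 weeks and 4069 TPM at 20 weeks on HFD). This fit therefore cannot separate adipocyte RNA from time on HFD. The part of adipocyte RNA in the Timp4 differences was not tested.

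**Figure D3:**
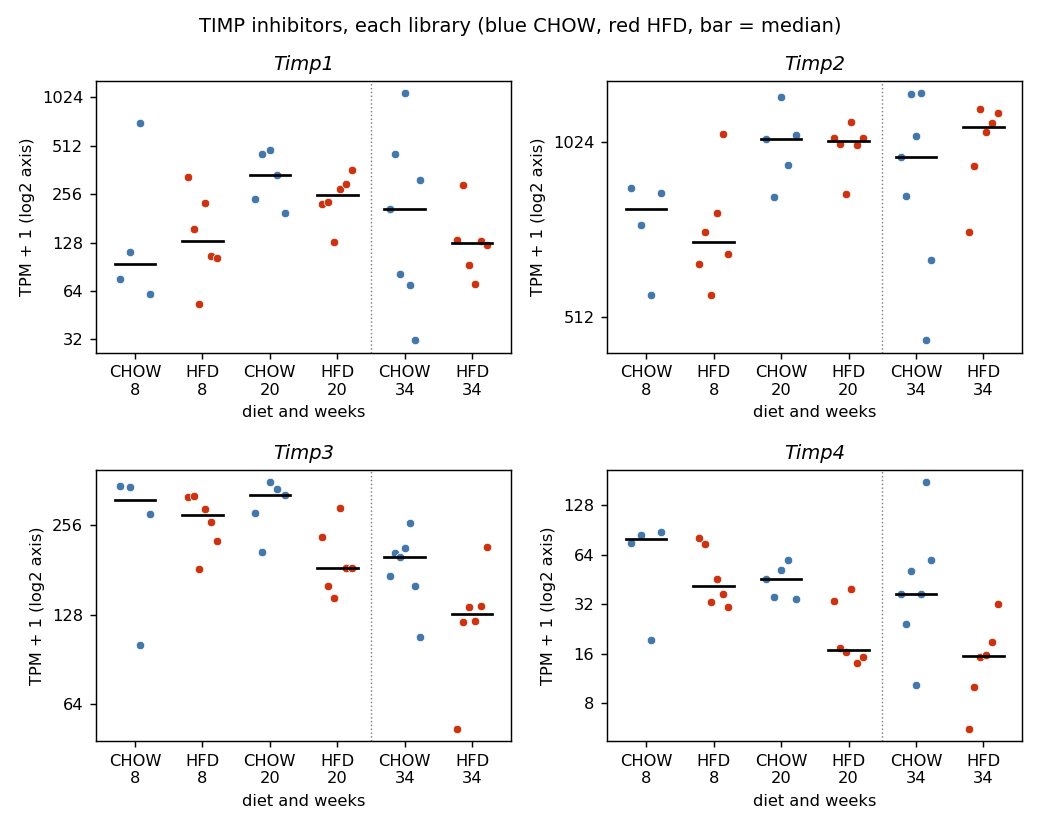
TPM of Timp1, Timp2, Timp3 and Timp4 in each library (vertical axis, TPM + 1, log2 scale) by diet and weeks (horizontal axis), with points for libraries and bars for medians. The diets overlapped for all 4 inhibitors at all 3 times, and Timp2 was the highest, with group means of 731 to 1021 TPM.

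As transcript sums, the Mmp genes exceeded the Timp genes in the HFD libraries of 20 and 34 weeks, and without Mmp12 they did so in none of these. The Mmp sum divided by the Timp sum was 0.392 to 1.02 in CHOW and 1.29 to 2.24 in HFD libraries at 20 weeks, 0.384 to 0.992 and 1.14 to 1.62 at 34 weeks, and 0.4925 to 0.647 and 0.593 to 1.29 at 8 weeks. The ranges were apart at 20 and 34 weeks and overlapped at 8 weeks. Mmp12 made up 43.2 to 65.2% of all Mmp transcripts in HFD libraries at 20 weeks and 2.01 to 41.8% in CHOW libraries, of which the highest was replicate 2. At 34 weeks its share was 43.9 to 54.0% in HFD and 3.37 to 37.6% in CHOW libraries. Leaving Mmp12 out, the Mmp sum was 750.4 to 896 TPM in CHOW and 868 to 1183 TPM in HFD libraries at 20 weeks, with overlap. At 34 weeks it was 301 to 1837 TPM in CHOW and 785 to 1060 TPM in HFD libraries (means 861 and 882 TPM), also with overlap. These sums are descriptions and were not tested.

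**Figure D4:**
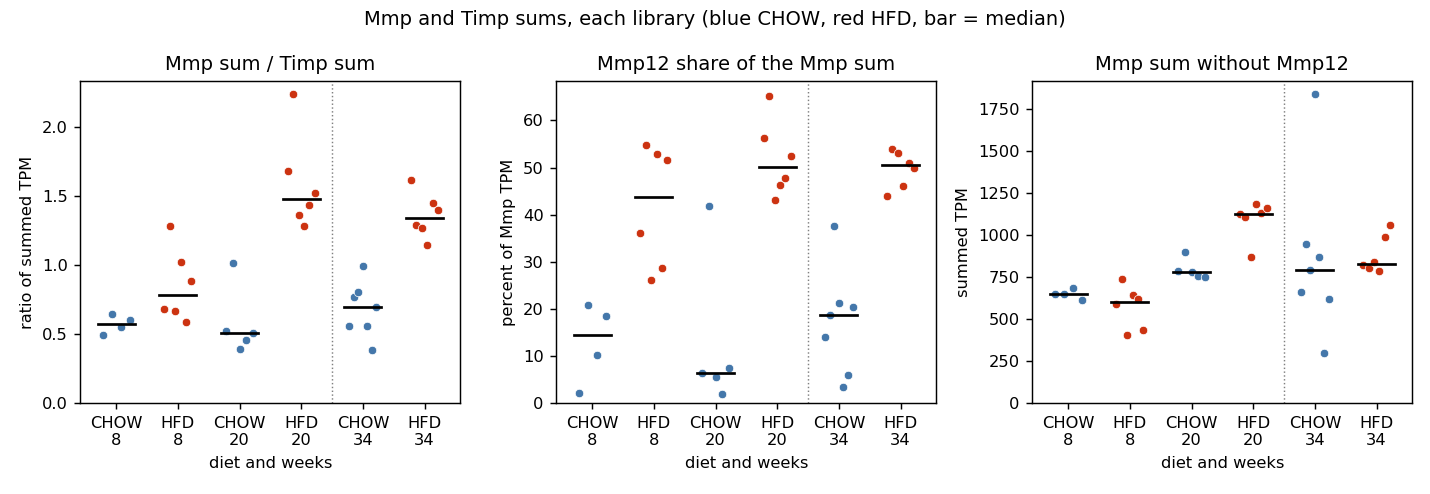
The Mmp to Timp ratio of summed TPM, the percent of Mmp TPM that was Mmp12, and the Mmp sum without Mmp12 in TPM (vertical axes), in each library by diet and weeks (horizontal axis), with points for libraries and bars for medians. The ratio was 1.14 or more in every HFD library of 20 and 34 weeks and at most 1.02 in CHOW libraries.

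Among ADAM proteases of somatic cells, 3 of 8 tested were called higher at 20 weeks and none lower, against 9.32% and 4.99% of all genes tested. With the adipocyte covariate none of the 3 passed, and the share of all genes was 3.03%. Adam8 (chr7:139978932-139992562, - strand), a sheddase of myeloid cells, was 119, 225, 78.9, 65.1 and 74.1 TPM in CHOW and 239.8 to 502 TPM in HFD libraries, with a median of 309. Every HFD library was above every CHOW library (1.70, SE 0.36, adjusted p = 0.00407), and the call was lost with the adipocyte covariate. Per 1000 TPM of macrophage markers Adam8 was 10.9 to 18.1 TPM in CHOW and 21.5 to 30.4 TPM in HFD libraries. Adam19 was 10.8 to 18.4 TPM in CHOW and 19.3 to 35.6 TPM in HFD libraries, without overlap (0.85, SE 0.20, adjusted p = 0.00865). Adam12, known from progenitors of muscle and fat, was 13.3 to 19.4 TPM and 18.1 to 44.7 TPM, with overlap (0.79, SE 0.26, adjusted p = 0.0425), and was lost in 8 of 11 fits that left out 1 library. Adam15 (118 to 161 TPM in CHOW, 139.7 to 184 TPM in HFD) and Adam9 (74.3 to 124 TPM and 74.2 to 101 TPM) were abundant and overlapped. Adam23, which has no protease activity, was lower on HFD (11.7 to 24.7 TPM against 11.1 to 14.1 TPM, -0.64, SE 0.19, adjusted p = 0.0302), and CHOW replicate 2 was in the HFD range. The Adam23 call was lost in 6 of 11 fits that left out 1 library. It was also lost with the adipocyte covariate (adjusted p = 0.541) and without the 3 HFD libraries with the most germ cell RNA.

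Adamts1 and Adamts4 were abundant, and the ADAMTS genes were mostly not called between diets. At 20 weeks 1 of 16 tested passed, Adamts3, which trims procollagen II and activates a lymphatic growth factor, with 1.61 to 3.66 TPM in CHOW and 0.706 to 1.40 TPM in HFD libraries (-0.68, SE 0.21, adjusted p = 0.0391), without overlap. This call was lost in 7 of 11 fits that left out 1 library, with adjusted p up to 0.0967, with the adipocyte covariate, with no filter and without the 3 HFD libraries with the most germ cell RNA. Adamts1, which cuts aggrecan and versican, was 449.7 to 524 TPM in CHOW and 246 to 522 TPM in HFD libraries (-0.25, adjusted p = 0.482). Adamts2, the main procollagen I trimming enzyme, was 39.9 to 59.0 TPM and 51.8 to 96.9 TPM (0.47, adjusted p = 0.0834). Adamts4 (chr1:171250421-171260637, + strand), another aggrecan-cutting enzyme, differed over time on HFD. It was 168, 141, 153 and 96.2 TPM at 8 weeks and 253, 228, 442, 439.8 and 614 TPM at 20 weeks on CHOW, without overlap (1.43, SE 0.34, adjusted p = 0.0578). On HFD it rose from 60.8 to 171 TPM at 8 weeks to 152 to 376 TPM at 20 weeks, with overlap (1.14, SE 0.30, adjusted p = 0.0203).

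The reproductive tract ADAM genes gave 4 of the 12 higher calls at 20 weeks, and each was high in only a few HFD libraries. Adam5 was 2.46, 2.49, 11.2, 27.8, 97.5 and 1.59 TPM in HFD replicates 1 to 6 and 0.382 to 1.79 TPM in CHOW libraries (2.30, SE 0.71, adjusted p = 0.0353). Adam32 was 0.909, 1.78, 6.74, 21.9, 70.7 and 0.398 TPM in the same order and 0 to 0.999 TPM in CHOW libraries (2.37, SE 0.76, adjusted p = 0.0412). Replicates 3, 4 and 5 were high in both, and replicate 6 was in the CHOW range. Adam2, a sperm protein that pairs with Adam1 proteins, reached 41.3 TPM (2.03, SE 0.65, adjusted p = 0.042) and Adam1b 16.3 TPM (1.49, SE 0.49, adjusted p = 0.0444), both in replicate 5. Adam3, needed for sperm to pass into the oviduct, reached 118 TPM there (2.54, adjusted p = 0.0545). Of the 11 fits that left out 1 library, Adam5 lost the call in 6, Adam32 in 7, and Adam2 and Adam1b each in 8. These 4 calls were also lost with no filter, with only the groups compared and with the adipocyte covariate. Adam1a and Adam1b, and likewise Adam6a and Adam6b and Adam26a and Adam26b, are close copies, and how reads were split within each pair is uncertain.

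The germ cell markers moved with these genes. In HFD 20 week replicates 1 to 6 the 21 reproductive tract Adam genes summed to 13.04, 23.6, 54.4, 143, 439 and 6.998 TPM, and the germ cell markers to 139, 257, 2451, 3130, 13175 and 20.0 TPM. HFD 34 week replicates 1 and 2 had 151 and 146 TPM of these Adam genes, and no CHOW library had more than 41.6 TPM. Of the 10 germ cell markers 3 were higher at 20 weeks (Ldhc, Tssk6 and Gapdhs), and Prm1 and Tnp1, which define late germ cells, were listed at 0 in some libraries. Without replicates 3, 4 and 5 no reproductive tract Adam gene passed, and the share of all genes was 5.63%. These libraries were chosen after seeing the data and are those where these genes were high, so the loss followed from the choice. The part of germ cells in the differences of these Adam genes was not tested. All 21 reached 1 TPM in some library, and for 20 of them the highest value was in HFD 20 week replicate 5. The exception was Adam7, an epididymis gene, at 17.2 TPM in CHOW 8 week replicate 3 (20 week log2 fold change -1.43, adjusted p = 0.194).

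**Figure D5:**
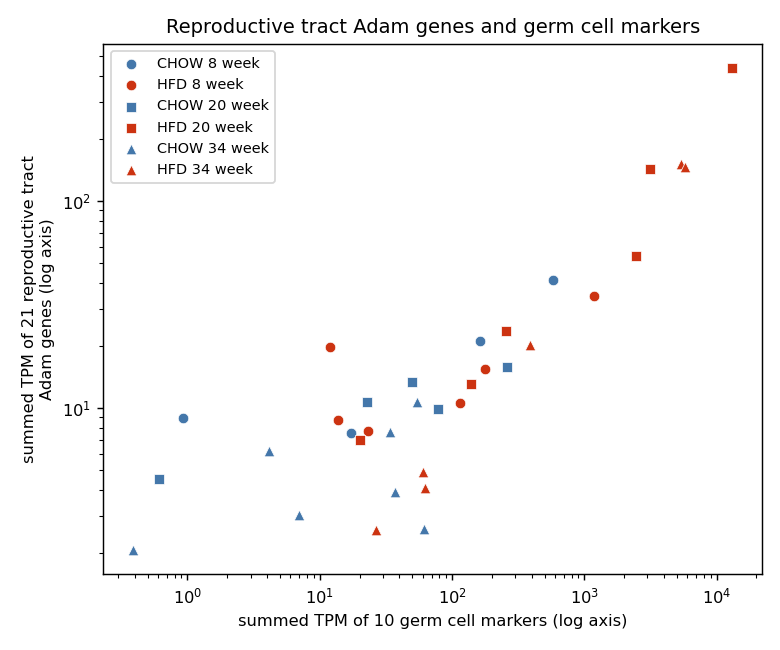
Summed TPM of the 21 reproductive tract Adam genes (vertical axis) against that of 10 germ cell markers (horizontal axis) in each library, both on log axes, with points coloured by diet. The 3 HFD 20 week and 2 HFD 34 week libraries at upper right held 54.4 to 439 TPM of these Adam genes.

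At 8 weeks 0 of 57 members passed in limma, against 0.0238% of all genes tested, and 4 passed an unadjusted p of 0.05 (Mmp9, Mmp12, Mmp15 and Adamts3). Mmp8 (-1.01, adjusted p = 0.552) and Adamts3 (-0.52, adjusted p = 0.467) followed Mmp9 as the lowest log2 fold changes. Mmp9 levels did not overlap (2.11% of all genes tested did not, and 1.77% were lower on HFD) and was called with the replicate block, with sample quality weights and under the stricter filter. At 34 weeks 0 of 45 passed, against 0.243%, with 12 at an unadjusted p of 0.05. Mmp12 and Mmp13 were the 2 members without overlap, both higher on HFD (0.737% of all genes tested). After Mmp12 the highest log2 fold changes were those of Adam5 (1.45, adjusted p = 0.389) and Adam8 (1.39, adjusted p = 0.342), and the lowest those of Timp4, Mmp9 and Adamts16 (-0.91, adjusted p = 0.325). Sample quality weights called 4 members at 34 weeks, Mmp12, Mmp13, Mmp9 and Adamts4, and the other planned fits on all libraries called none. Fits without the 2 HFD libraries with the most germ cell RNA, or without the 3 CHOW libraries with the most adipocyte RNA, also called none. The 2 tables share no libraries and the 34 week effects were not tested against the others.

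Time on diet was compared within each diet at 8 and 20 weeks, and these comparisons share libraries with those above. On HFD 15 of 57 members (26.3%) passed, 11 higher and 4 lower at 20 weeks, against 8.78% of all genes tested (6.12% higher and 2.65% lower). With quantile normalization the split was 11 higher and 9 lower (16.4% of all genes called), and without the 3 HFD 20 week libraries with the most germ cell RNA 8 passed (3.61% of all genes). Over the same time on HFD 6 of 6 mast cell markers and 5 of 10 macrophage markers were higher, 5 of 5 erythroid and 5 of 9 adipocyte markers were lower, and 1 macrophage and 2 of 8 mesothelial markers were lower. Summed mast cell markers went from 113 to 258 TPM at 8 weeks to 573 to 2732 TPM at 20 weeks, and summed erythroid markers from 33175 to 267887 TPM to 12622 to 30448 TPM. Their part in the members' changes was not tested. Mmp2, Mmp14 and Mmp11 passed under all 10 other settings and in all 12 fits that left out 1 library. Mmp13 (2.01, SE 0.31, adjusted p = 0.000311), Mmp3 (2.16, SE 0.45, adjusted p = 0.00424) and Mmp27 (1.31, SE 0.26, adjusted p = 0.00283), an enzyme little is known of, rose without overlap, as did Mmp2 and Mmp14 (of all genes tested 4.17% did not overlap and 2.89% did so as higher). Mmp11 (1.39), Adam12 (0.97), Adam8 (1.11), Adam5 (2.16), Adamts4 and Timp2 also rose. Mmp9 (-1.20), Timp4, Adamts16 (-0.97) and Adamts19 (-0.89) fell, Adamts19 without overlap (1.29% of all genes tested). Of the 12 fits that left out 1 library, Timp2, Adam8 and Adamts16 each lost the call in 9, and Mmp9, Timp4 and Adam5 each in 8. Timp2 and Adam8 also lost it with quantile normalization. On CHOW 0 of 57 passed in limma, against 0.613%, with 7 at an unadjusted p of 0.05, and Mmp13, Mmp14 and Adamts4 were higher without overlap (of all genes tested 6.28% did not overlap, 2.61% as higher and 3.66% as lower). Its lowest values were those of Adam32 (-1.07), Adam1a (-0.70) and Adam1b (-0.43), of which Adam1a did not overlap. The diet by time interaction, which asks whether the diet effect differed between 8 and 20 weeks, gave 0 of 57 in limma, against 0.297% (0.161% higher and 0.137% lower), with 12 at an unadjusted p of 0.05. Its largest values were Adam32 (2.73, adjusted p = 0.321), Adam5 (2.42) and Adam3 (2.23), its lowest Adamts16 (-1.09), Mmp25 (-1.03) and Mmp9 (-1.01), and none of these passed.

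The proteases and regulators that work with these families were read from a list of 41 genes, of which 37 were tested at 8 and 20 weeks. At 20 weeks 9 were higher and 6 lower on HFD, while 9.32% of all genes tested were higher and 4.99% lower. The list's median log2 fold change was -0.13 against 0.08 over all genes. The higher genes included 4 cathepsins, lysosomal proteases that also cut matrix: Ctsk (2.44, SE 0.36, adjusted p = 0.000236), Ctss (1.71), Ctsb (1.23) and Ctsl (1.09). Ctsk was 64.2 to 291 TPM in CHOW and 425 to 861 TPM in HFD libraries. The others were Pcolce, which speeds procollagen trimming (0.94), the uptake receptor Lrp1 (0.66), the tetraspanins Tspan33 (0.93) and Tspan17 (0.77), which escort ADAM10, and Adamtsl5 (0.69). The lower genes were the matrix protein Adamtsl1 (-1.54, SE 0.22, adjusted p = 0.000169), the plasminogen activator inhibitor Serpinb2 (-2.16), the proprotein convertase Pcsk6 (-1.40), the proteoglycans Spock2 (-1.24) and Spock3 (-0.99), and the plasminogen activator Plat (-0.83). At 8 and 34 weeks no gene of the list passed, against 0.0238% and 0.243% of all genes tested. Plau, the other plasminogen activator, rose from 8 to 20 weeks on both diets (1.03 on CHOW, adjusted p = 0.0449, and 1.07 on HFD, adjusted p = 0.00173). On HFD Ctsk, Tspan33, Ctsb, Ctsl and Lrp1 rose over the same time as well, and Pcsk6 and Tll2 fell. Of all genes tested 6.12% were higher and 2.65% lower over this time on HFD, and 0.458% were higher on CHOW.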

How the data were processed

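The values the authors deposited are TPM per gene, with 21 libraries of 8 and 20 weeks in one table, 13 libraries of 34 weeks in the other, and 32098 genes in each. Libraries were stranded poly(A) libraries sequenced on an Illumina NextSeq. The authors trimmed reads with Trimmomatic and quantified them with Salmon against gencode M10 (the submitters' processing notes also name FastQC, MultiQC, DESeq2 and mm10), with versions not given in the sources used here. TPM values are not counts, so the DESeq2 test of the study could not be used, and depth and its precision are unknown. Adipocyte libraries were not analysed here.

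Groups were taken from the sample titles. Symbols and positions were matched by gene ID without version to gencode M21 (31791 IDs matched, and 54 of the 79 members had the same version). TPM was taken as log2(TPM + 1), which understates changes of low genes, and genes that reached 1 TPM in 4 libraries (8 and 20 weeks) or 6 libraries (34 weeks) were tested with limma 3.58.1 in R 4.3.3 (1 mean per group, eBayes with a trend, two-sided, Benjamini-Hochberg over all genes tested, threshold 0.05). The tables were fitted apart. The fits were tested on simulated data. Other settings were a pseudocount of 0.1 TPM, no filter, a filter at 5 TPM, median-ratio scaling, quantile normalization, sample quality weights, only the groups compared, a replicate block, an adipocyte score as covariate and leaving out each library.

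Members, roles, partners and marker lists were chosen with earlier results of these data known. Named with values were the 4 Timp genes, Mmp2, Mmp9 and Mmp11, members called in any comparison, the 3 highest and 3 lowest log2 fold changes of each comparison, the 3 most abundant members of each family, reproductive tract Adam genes that reached 1 TPM, and partners that passed.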

Additional observations from a re-analysis of the deposited data

Results flagged for a closer look

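Single libraries far from the rest of their group were looked for in 48 named members, in 227 pairs of a member and a group of 4 to 7 libraries. For normally spread values chance marks about 1 in 20 of such pairs (11.3 here), and 49 were marked. The search used TPM without logs, and most marked values were on the high side. The rate of 1 in 20 need not hold for such values, so 49 cannot be read as an excess over chance. Most are one library in many members, and no cause was tested.

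HFD 20 week replicate 5, the library with the most germ cell RNA, stood apart in reproductive tract Adam genes, with 118 TPM of Adam3, 97.5 of Adam5, 70.7 of Adam32, 41.3 of Adam2, 16.3 of Adam1b, 14.5 of Adam18, 10.4 of Adam30, 8.39 of Adam6a, 5.12 of Adam6b, 4.99 of Adam20, 4.36 of Adam4 and 3.97 of Adam25. HFD 8 week replicate 4 did so at lower levels, with 10.9 TPM of Adam3, 5.99 of Adam5, 1.85 of Adam2 and 1.23 of Adam18. HFD 34 week replicate 1 had 1.39 TPM of Adam34. Adam7 stood apart in HFD 8 week replicate 6 (11.7 TPM) and in CHOW 34 week replicate 2 (8.11 TPM).

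Among CHOW libraries, 8 week replicate 3 stood apart with 703 TPM of Timp1, 12.8 of Mmp3, 5.54 of Adam3, 4.26 of Adamts3 and 1.41 of Adam2. CHOW 20 week replicate 2 stood apart with 644 TPM of Mmp12, 16.97 of Mmp3 and 8.30 of Mmp8, and it was low in Adam23 (11.7 TPM). CHOW 34 week replicate 4 had 1081 TPM of Timp1, 814 of Mmp2, 147 of Adamts2, 117 of Mmp3 and 1.72 of Adam3, and replicate 6 had 176 TPM of Timp4 and 8.10 of Mmp15. CHOW 20 week replicate 1 had 8.72 TPM of Mmp25 and replicate 5 a low 39.9 TPM of Adamts2.

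Among HFD libraries, 8 week replicate 2 had 39.6 TPM of Mmp11, replicate 5 had 22.2 TPM of Adam23 and replicate 1 had 2.18 TPM of Mmp8. HFD 20 week replicate 3 had 9.19 TPM of Mmp9, 1.92 of Mmp8 and a low 833 of Timp2, and replicate 6 had 30.2 TPM of Mmp13. HFD 34 week replicate 2 had 291 TPM of Timp1, 6.99 of Mmp13 and 1.31 of Mmp8, replicate 6 had 73.9 TPM of Adamts2, and replicate 1 a low 23.4 TPM of Adam19.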

How the results depend on the processing

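Counts of members called moved as follows under other settings. At 20 weeks, against 16, they were 5 with the adipocyte covariate, 10 with no filter, 28 with sample quality weights (16 higher and 12 lower) and 6 without the 3 HFD 20 week libraries with the most germ cell RNA, a setting chosen after seeing the data. Leaving out 1 library gave 8 to 17, with 8 when CHOW 20 week replicate 4 was left out, 9 for CHOW replicate 3 or 5, and 10 for CHOW replicate 1 and for HFD 20 week replicate 3 or 5. From 8 to 20 weeks on HFD, against 15, they were 4 with the adipocyte covariate and 8 without the same 3 libraries, and 9 to 17 leaving out 1 library, the lowest without HFD 8 week replicate 1 or 5. Against 0, they were 1 at 8 weeks with the replicate block, weights or stricter filter (0 to 1 leaving out 1 library, 1 without HFD 8 week replicate 3 or 5), and 4 at 34 weeks with weights (0 to 2, with 2 without CHOW 34 week replicate 4, Mmp12 and Mmp9). The 34 week fits without 2 HFD or 3 CHOW libraries, also chosen after seeing the data, gave 0. On CHOW over time they were 2 with the adipocyte covariate, 3 with median-ratio scaling or quantile normalization, 1 with only the groups compared or the stricter filter, and 5 with weights (0 to 2, with 1 without CHOW 20 week replicate 1 or 2 and 2 without CHOW 8 week replicate 3). For the interaction they were 1 with median-ratio scaling or quantile normalization and 2 with weights (0 to 1, with 1 without CHOW 20 week replicate 2 or HFD 8 week replicate 2). The causes were not tested.

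Mmp12, Mmp2 and Mmp9 at 20 weeks passed under all 10 settings and all 11 fits that left out 1 library. Among called values Timp4 over time on HFD alone changed sign, to 0.32 (adjusted p = 0.8288) with the adipocyte covariate. Over all genes tested, quantile normalization shifted the median difference on the log2 scale from 0.08 to -0.05 at 20 weeks, from 0.09 to -0.06 on HFD over time, from 0.10 to -0.00 at 34 weeks and from 0.18 to -0.02 for the interaction.

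Replicate numbers were not taken to pair the libraries, since the labels tie them to nothing shared. Of 34 pairs with the same number 16 had a correlation of their deviations over 0.1 (range -0.105 to 0.404), and in each of the 5 comparisons of 2 groups at least 1 pair was below it. With the replicate block 21 members passed at 20 weeks, 18 on HFD over time, 1 at 8 weeks and 0 in the other comparisons. Depth is unknown, so low members cannot be given a detection limit.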
